A study of Mus musculus with 24 samples.

Results

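The proteasome genes of the mouse were followed through RNA-seq and ribosome profiling of hippocampal slices. Members were all rows of both count tables whose symbol begins with Psm, followed by a letter from a to g and a number. The rule gave 50 of the 23845 genes in the RNA table and the same 50 of the 20436 genes in the table of ribosome-protected fragments (RPFs). Of these, 46 had enough counts to be tested at both levels, namely 16 of 19 genes of the 20S core (Psma and Psmb), all 21 of the 19S group (Psmc and Psmd), and 9 of 10 activators and assembly factors (Psme, Psmf and Psmg). Psmc3ip matches the rule by its symbol and was kept in the counts, but its product is a partner of a proteasome ATPase and of recombination proteins and not a subunit. Leaving aside Psmc3ip, the inducible subunits and the assembly chaperones, there were 14 constitutive 20S subunits and 17 19S subunits, and these lists are used below where levels are described.

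The study asked how loss of 1 copy of Tsc2, and stimulation of group I metabotropic glutamate receptors, change RNA levels and translation in the hippocampus. Slices came from male wild-type (WT) mice and germline Tsc2+/- littermates, made with CMV-Cre and a floxed Tsc2 allele, at 28 to 42 days of age. They were given vehicle (artificial cerebrospinal fluid) or 100 µM DHPG, an agonist of these receptors, for 5 min and then cycloheximide. CA3 was cut off, which left slices enriched for CA1, and all mice had been bred on C57BL/6J. The 4 groups had 3 RNA and 3 RPF libraries each, and every library held pooled slices of several mice, so the spread between libraries is that between pools.

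The 20S core is a barrel built of outer rings of α subunits, which gate the entry, and inner rings of β subunits, of which 3 kinds cut peptide bonds. The 19S particle caps the barrel, where its base of ATPases unfolds proteins and its lid removes ubiquitin chains, while 11S and PA200 particles are alternative caps. Subunits are needed in fixed ratios and are assembled with dedicated chaperones, and in neurons the complex degrades synaptic proteins during plasticity.

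RNA libraries held 14801679 to 24067838 counts and RPF libraries 5296006 to 13613673, of which the 50 genes took 0.24% to 0.28% and 0.635% to 0.712%. Tsc2 itself stood at 185.9 to 214.3 counts per 1000000 (CPM) in WT RNA libraries and at 128 to 136.6 CPM in Tsc2+/- ones, with no overlap, and at 122.9 to 145.7 against 76.46 to 84.5 CPM in RPFs. RNA of 4 CA1 markers summed to 1614 to 1786 CPM per library and that of 3 CA3 markers to 44.8 to 57.6, and markers of astrocytes and oligodendrocytes were present in every library. At least 97.9% of the non-zero RPF counts of replicates 2 and 3 were even numbers, against at most 49% in replicate 1, so these counts appear as doubled. Within the proteasome genes the WT vehicle libraries stood apart: replicate 3 had the highest RNA of the 14 constitutive 20S subunits of all 12 libraries, and replicate 1 had the lowest RPFs. Differences that moved by over 1.5 times without 1 of these libraries are given with and without it. In bulk slices a smaller number of cells of a type and less RNA per cell cannot be told apart.

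In WT vehicle slices the constitutive 20S subunits were translated at similar levels. Per kb of coding sequence, footprint density ran from 189.5 ± 10.5 CPM per kb for Psma7 to 454.2 ± 59.7 for Psmb1 (mean ± SD, n = 3), a 2.40-fold range over 14 genes with a median of 319.9. All 14 lay far above the median of 16.7 CPM per kb over 12541 genes. RNA density per kb of transcript was less even, from 19.4 ± 2.66 CPM per kb for Psma3 to 83.9 ± 7.82 for Psmb1, a 4.33-fold range with a median of 55.1. The coefficient of variation among the 14 genes was 32.1% for RNA density and 20.8% for footprint density. The low end for RNA was set by Psma3, for which a transcript of 2374 bases was used, and the next lowest was Psma5 at 33.8 ± 5.99 CPM per kb. With the coding length in place of transcript length the RNA range was 2.12-fold, narrower than that of the footprints. Whether RNA or footprints were more even thus depended on the length used.

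**Figure D1:**
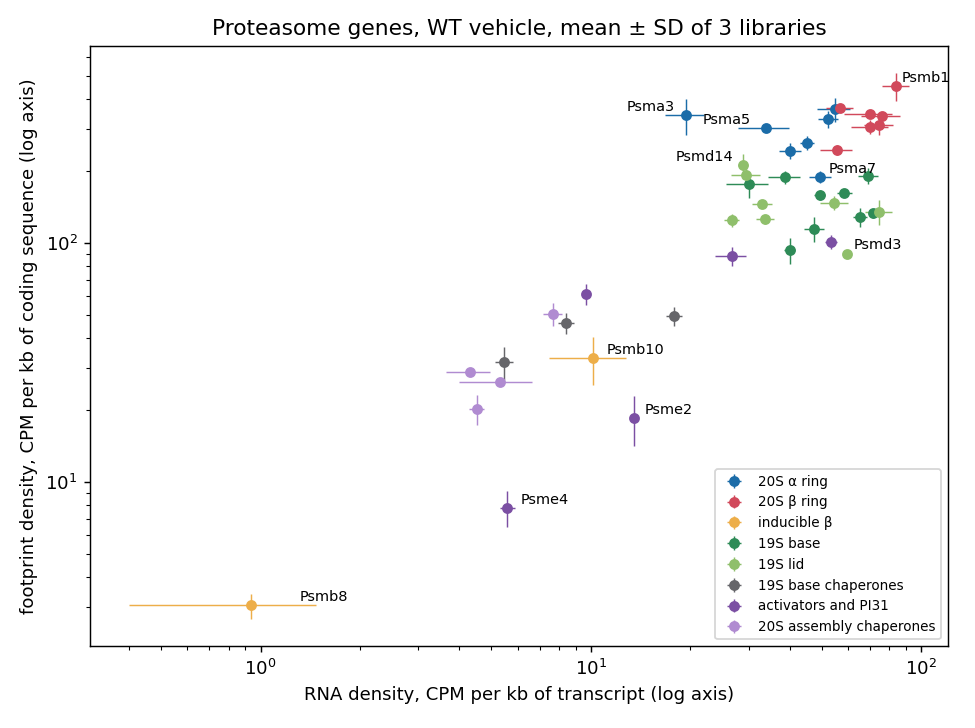
RNA density (CPM per kb of transcript, x axis) and footprint density (CPM per kb of coding sequence, y axis) of 45 tested genes (all but Psmc3ip) in WT vehicle slices, both on log axes, with points for means and bars for the SD of 3 libraries. The 14 constitutive 20S subunits form the top of the plot at 189.5 to 454.2 CPM per kb of coding sequence, while the 17 19S subunits lie mostly below them at about the same RNA densities, and Psmb8 lies at the bottom left.

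The ends of the order within the 20S core were the same in every library. Psmb1, a β subunit without catalytic activity, had the highest footprint density of the 14 genes in 12 of 12 RPF libraries. Psma7, an α subunit, had the lowest in 12 of 12. The catalytic subunits lay between them in WT vehicle slices, with footprint densities of 306.4 ± 20.4 CPM per kb for Psmb5, the chymotrypsin-like subunit, 245.6 ± 11.04 for Psmb6, the caspase-like subunit, and 310.5 ± 25.9 for Psmb7, the trypsin-like subunit. Psmb5 and Psmb7 did not differ beyond their spread. Over all 12 libraries the coefficient of variation of a constitutive 20S subunit was 2.66% (Psma5) to 8.91% (Psma3) in RPF CPM and 4.81% (Psma4) to 11.1% (Psmb6) in RNA CPM.

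The 17 subunits of the 19S particle had about the same RNA densities as the 20S core and lower footprint densities. Their RNA densities in WT vehicle slices ran from 26.7 CPM per kb (Psmd12, of the lid) to 74.6 (Psmd8, of the lid). Their median was 47.5. All 17 lay within the range of the 20S subunits, but the low end of that range was set by Psma3, with its transcript of 2374 bases. Psmc6, Psmd6, Psmd11, Psmd12, Psmd13 and Psmd14 lay below the next lowest 20S subunit, Psma5 at 33.8 CPM per kb. Their footprint densities ran from 90.4 ± 2.89 CPM per kb (Psmd3, a large lid subunit) to 211.2 ± 25.8 (Psmd14, the deubiquitinase of the lid), with a median of 145.1. Of the 17, 14 lay below the lowest 20S subunit, and the exceptions were the base ATPase Psmc3 at 191.0 ± 15.1, the lid subunit Psmd6 at 193.1 ± 17.1, and Psmd14. In each of the 12 libraries the median footprint density of the 20S subunits was 2.13 to 2.36 times that of the 19S subunits, whereas for RNA density this ratio was 0.985 to 1.23.

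The ratio of footprint density to RNA density was therefore higher for the core than for the cap. As a value per kb of coding sequence, it is not the number of footprints on an RNA molecule. Translational efficiency (TE) is given here as the log2 ratio of footprint to RNA density, relative to the median of 12541 genes, for which the 5th and 95th percentiles were -2.02 and 1.74. In WT vehicle slices the median TE was 1.502 over the 7 α subunits, 1.03 over the 7 β subunits, 0.32 over the 6 base ATPases and 0.87 over 8 lid subunits. TE was above that of the median gene for 14 of 14 constitutive 20S subunits and for 13 of 17 19S subunits. Before any correction for length, the median log2 ratio of RPF to RNA CPM of the 20S subunits ran from 1.80 to 2.22 over the 12 lysates and that of the 19S subunits from 1.23 to 1.44, with no overlap. Each lysate was split between both assays in the study. RNA and RPF libraries of 1 group with the same replicate number were taken as the same lysate, which the labels do not state.

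These TE levels moved with length. Coding sequences of the 20S subunits were 606 to 834 bases long and those of the 19S subunits 933 to 2862. The Spearman correlation of TE with coding length was -0.356 over 12500 genes and -0.489 over the 46 members. It was -0.332 within the 14 20S subunits and -0.413 within the 17 19S subunits. These values are a description only, since all points share the same libraries and TE is itself computed by dividing footprints by coding length. The part that length played in the difference between core and cap was not tested. With the coding length used for RNA as well, the medians were 1.79 for all 16 tested 20S genes and 1.03 for all 21 tested 19S genes, against 1.23 and 0.32 with transcript length.

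**Figure D2:**
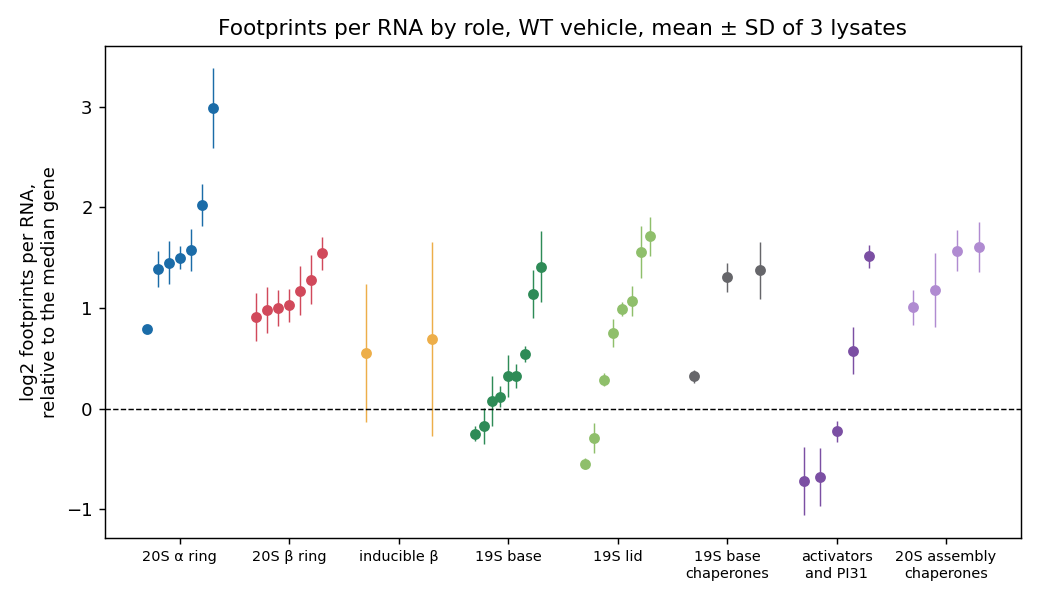
TE of the 45 tested genes with a role in the proteasome in WT vehicle slices (log2 footprint density over RNA density, relative to the median of 12541 genes, dashed line at 0), grouped by role and sorted within it, with points for means and bars for the SD of 3 lysates. All α and β subunits of the constitutive core lie above 0, base subunits lie around and above it, and the lowest values are Psme2 at -0.72 and Psme4 at -0.68 among the activators.

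The highest TE belonged to the α subunits Psma3 (2.99 ± 0.39) and Psma5 (2.03 ± 0.21) and to Psmd14 (1.71 ± 0.19), and the lowest to the activators Psme2 (-0.72 ± 0.34) and Psme4 (-0.68 ± 0.29) and to Psmd3 (-0.55 ± 0.05). The value of Psma3 rests on a transcript of 2374 bases for a coding sequence of 768, longer than for any other 20S subunit tested, and the gene overlaps the antisense RNA 3110056K07Rik, whose reads cannot be told apart from it unless strand was used in counting. To show what surrounds the start codon in genes at both ends of this order, and in Psmb1, on which the comparisons below turn, the 9 bases before the start codon and the first 6 of the coding sequence are printed, with the start codon ATG in capitals.
Psma3: gtcagcaccATGagc
Psma5: gtcctcgccATGttc
Psmd14: aacagaaatATGgac
Psmb1: ttaggcgcgATGctt
Psmd3: ccgggcgccATGaag
Psme4: cccgggctaATGgag
Psme2: gggggaagcATGgcc

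The windows are from RefSeq transcripts of GRCm38.p6, which shares its coordinates with mm10, and span the end of the 5′ UTR and the start of the coding exon sequence. The genes lie at chr12:70969283-70995877 (Psma3), chr3:108256926-108279952 (Psma5), chr2:61711694-61800376 (Psmd14), chr11:98682554-98695978 (Psmd3) and chr11:30771775-30881150 (Psme4) on the plus strand, and at chr17:15475721-15498276 (Psmb1) and chr14:55587440-55591101 (Psme2) on the minus strand. A purine stood at the position 3 bases before the start codon in Psma3, Psma5, Psmd14, Psmb1, Psmd3 and Psme2 and not in Psme4. Among 42 members with a window a purine stood there in 92.9%, against 86.3% of 12380 genes, and a purine there with a G right after the start codon occurred in 47.6% against 45.5%. An ATG upstream of the start was found in the 5′ UTR of 10 of 46 members (21.7%), Psma3 and Psmd14 among them, and of 49.9% of 12541 genes. These shares were not matched for the length of the 5′ UTR, which ran from 4 bases (Psmb5 and Psmb7) to 408 (Psmc2) among the members. Psme2, with the lowest TE, and Psmd14, among the highest, both had the purine and the G. Psme2 has a copy, Psme2b, with the same window. Reads shared between them would be lost in counting, so the TE of Psme2 is less certain.

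The inducible catalytic subunits, which replace their constitutive counterparts in immune cells and after interferon, were scarce. In WT vehicle slices footprint density was 3.04 ± 0.37 CPM per kb for Psmb8, the counterpart of Psmb5, and 32.9 ± 7.44 for Psmb10, the counterpart of Psmb7. Psmb9, the counterpart of Psmb6, had at most 13 counts in an RNA library and at most 10 in an RPF library and was not tested. The other genes below the filter were Psma8, a testis form of an α subunit, Psmb11, the thymus form of the catalytic subunit, and Psme2b, a copy of Psme2, each with at most 8 counts in any library of either kind. The tissue does hold microglia, whose 11 markers summed to 338.5 to 429.5 CPM in RNA over the 12 libraries.

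The activators and assembly factors had lower footprint densities than every constitutive 20S subunit. In WT vehicle slices footprint density was 101.2 ± 6.78 CPM per kb for Psme3, the nuclear 11S activator, 88.0 ± 8.03 for Psme1 and 18.6 ± 4.44 for Psme2, which together form the cytosolic 11S activator, 7.80 ± 1.33 for Psme4, the PA200 activator, and 61.3 ± 6.27 for Psmf1, a regulator that binds the core. The partners Psme1 and Psme2 thus differed beyond their spread in footprint density, as they did in RNA density, at 26.7 ± 2.87 and 13.5 ± 0.26 CPM per kb. Reads that Psme2 shares with its copy Psme2b would be lost, and their part in this difference was not tested. RNA density of Psme3 was 53.4 ± 2.24 CPM per kb, near the 20S median of 55.1. The 20S assembly chaperones Psmg1 to Psmg4 had footprint densities of 20.3 (Psmg1) to 50.5 (Psmg2) and RNA densities of 4.30 (Psmg3) to 7.66 (Psmg2), and their median TE of 1.38 was close to that of the 20S subunits, at 1.34. The 19S base chaperones lay at 49.5 ± 4.40 CPM per kb of coding sequence for Psmd5, 46.3 ± 4.53 for Psmd9 and 31.7 ± 4.97 for Psmd10.

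The effect of DHPG in WT slices was compared next. At an adjusted p under 0.1 in the edgeR quasi-likelihood test, 0 of 46 members were called in RNA (0% of all 14516 genes were called), 0 of 46 in RPFs (0.0311% of 12877 genes) and 1 of 46 in TE (0.0548% of 12785 genes, and 0.0156% higher with DHPG), which was Psmb1. DESeq2 called 0, 0 and 1. After ComBat, the batch correction of the study, DESeq2 called 4 members in RNA (Psma2, Psma6, Psmb1 and Psmd14, among 350 genes) and Psmb1 in RPFs (among 55 genes). At an unadjusted p under 0.05 there were 5 members in RNA, all lower with DHPG (10.9%, against 6.07% of all genes in either direction and 2.52% lower), 6 in RPFs, all higher (13%, against 7.07% and 3.83% higher), and 9 in TE, all higher (19.6%, against 8.64% and 4.33% higher). The vehicle and DHPG libraries did not overlap for 4 members in RNA (8.7%, against 10.3% of all genes), 3 in RPFs (6.52% against 8.96%) and 6 in TE (13% against 10.5%). RPFs of 6 endothelial markers summed to 115.7 to 119.4 CPM in WT vehicle and to 97.8 to 101 in WT DHPG, without overlap. RNA of the same markers overlapped, at 85.55 to 93.14 and 84.98 to 99.42 CPM. The list is named because its RPFs separated, and its part in these values was not tested.

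Psmb1 was the member on which this comparison turned. In RNA it stood at 87.5, 78.6 and 94.8 CPM in WT vehicle and at 72.4, 80.8 and 72.4 in WT DHPG libraries of replicates 1, 2 and 3. In RPFs it stood at 256.0, 317.7 and 329.8 CPM in vehicle and at 344.9, 372.8 and 347.1 in DHPG. RNA overlapped between the groups, as replicate 2 was low in vehicle and high in DHPG, whereas every DHPG library exceeded every vehicle library in RPFs.

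The log2 ratio of RPF to RNA CPM of Psmb1 was 1.55, 2.02 and 1.80 in vehicle and 2.25, 2.21 and 2.26 in DHPG, with no overlap. TE was higher by 0.45 on the log2 scale (SE 0.10, 95% interval 0.26 to 0.64, adjusted p = 0.0775, higher in 3 of 3 replicate numbers). Of this, RPFs differed by 0.25 (SE 0.06, adjusted p = 0.249) and RNA by -0.21 (SE 0.07, adjusted p = 0.8), neither of which passed the test. Without WT vehicle replicate 1 the RPF difference was 0.16. Without replicates 2 and 3 in turn the RNA difference was -0.32 and -0.11. The call was lost on leaving out any of 7 libraries: WT vehicle replicate 1 (0.35, adjusted p = 0.636) or 3 (0.42, 0.172), WT DHPG replicate 1 (0.40, 0.948), 2 (0.51, 0.145) or 3 (0.46, 0.304), and Tsc2+/- vehicle replicate 2 (0.45, 0.109) or Tsc2+/- DHPG replicate 2 (0.45, 0.136). Of 15 settings that left out a library or a whole replicate number, 6 kept the call. Without WT vehicle replicate 2 it held (0.58, adjusted p = 0.00258), and 5 further members were called higher in TE, Psma1, Psma3, Psma6, Psmb7 and Psmc6, among 345 genes called in all in place of 7. Without replicate numbers in the model the difference was 0.45 (adjusted p = 0.33), and once each library's dependence on GC content and length was removed it was 0.29 (adjusted p = 0.482). Over all these settings the adjusted p ran from 0.00258 to 1.

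**Figure D3:**
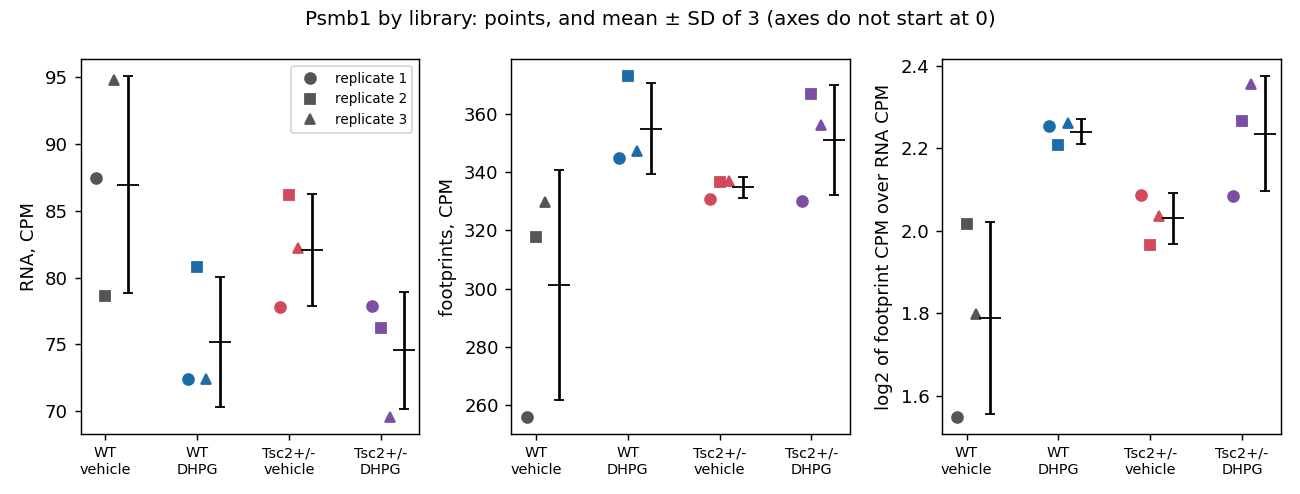
RNA (CPM), RPFs (CPM) and the log2 ratio of RPF to RNA CPM for Psmb1 in each library, with points shaped by replicate number and bars for mean ± SD of 3, on axes that do not start at 0. In WT slices the DHPG libraries lie above all vehicle libraries in RPFs and in the ratio, and WT vehicle replicate 1, at 256.0 CPM, is the lowest of the 12 RPF libraries.

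Other members named by their small unadjusted p did not pass the test. RNA of Psmd14 was 44.8, 42.8 and 46.1 CPM in WT vehicle and 39.2, 34.3 and 39.1 in WT DHPG libraries, with no overlap (difference -0.24, SE 0.09, adjusted p = 0.8). RNA of the α subunit Psma2 was 48.6, 46.7 and 53.3 CPM in vehicle and 44.7, 45.5 and 37.6 in DHPG, also without overlap (-0.22, SE 0.08, adjusted p = 0.8, and -0.13 without WT vehicle replicate 3). RPFs of Psmb7 were 229.3, 263.5 and 228.3 CPM in vehicle and 259.2, 283.1 and 258.9 in DHPG, and the groups overlapped because vehicle replicate 2 lay above 2 of the DHPG libraries (0.15, SE 0.06, adjusted p = 0.632). For the α subunit Psma6, the log2 ratio of RPF to RNA CPM was 2.04, 2.42 and 2.08 in vehicle and 2.36, 2.43 and 2.61 in DHPG, with 1 vehicle library inside the DHPG range (0.30, SE 0.10, adjusted p = 0.347, and 0.20 without WT vehicle replicate 3).

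As a group, the 20S genes had lower RNA, slightly more RPFs and higher TE estimates with DHPG in WT slices. The median log2 difference over 16 tested 20S genes was -0.11 in RNA, 0.07 in RPFs and 0.17 in TE, beside -0.0014, -0.0026 and 1e-04 over all genes tested. For 21 19S genes the medians were -0.04, 0.02 and 0.09, and for 9 activators and assembly factors -0.03, 0.06 and 0.11. Among the 14 constitutive 20S subunits, 0 were above 0 in RNA, 13 in RPFs and 14 in TE, beside 49.6%, 49.4% and 50% of all genes. The subunits share the same libraries and are not replicates of one another. For each of the 14, the lowest log2 ratio of RPF to RNA CPM was in WT vehicle replicate 1 or 3. The medians within replicate numbers 1, 2 and 3 were -0.07, 0.04 and -0.29 in RNA and 0.23, 0.07 and 0.30 in TE for these 14, so that RNA did not keep its direction in every replicate number.

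The RNA difference of the 20S genes rested on WT vehicle replicate 3, while the RPF and TE medians stayed above 0 on leaving out each WT vehicle library or replicate number, at 0.04 to 0.10 in RPFs and 0.13 to 0.26 in TE. Each of these settings still held WT vehicle replicate 1 or 3. Without WT vehicle replicate 3 the RNA median of the 16 20S genes was -0.0045 in place of -0.11, and the TE median 0.13 in place of 0.17, while without WT vehicle replicate 2 they were -0.18 and 0.26. The RPF median of 0.07 was 0.05, 0.04 and 0.10 without WT vehicle replicates 1, 2 and 3. After each library's dependence on GC content and length was removed the medians were -0.035 in RNA, 0.015 in RPFs and 0.03 in TE. The 95% intervals of all 14 constitutive 20S subunits, in RNA and in RPFs, lay within 0.5 of 0 on the log2 scale.

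**Figure D4:**
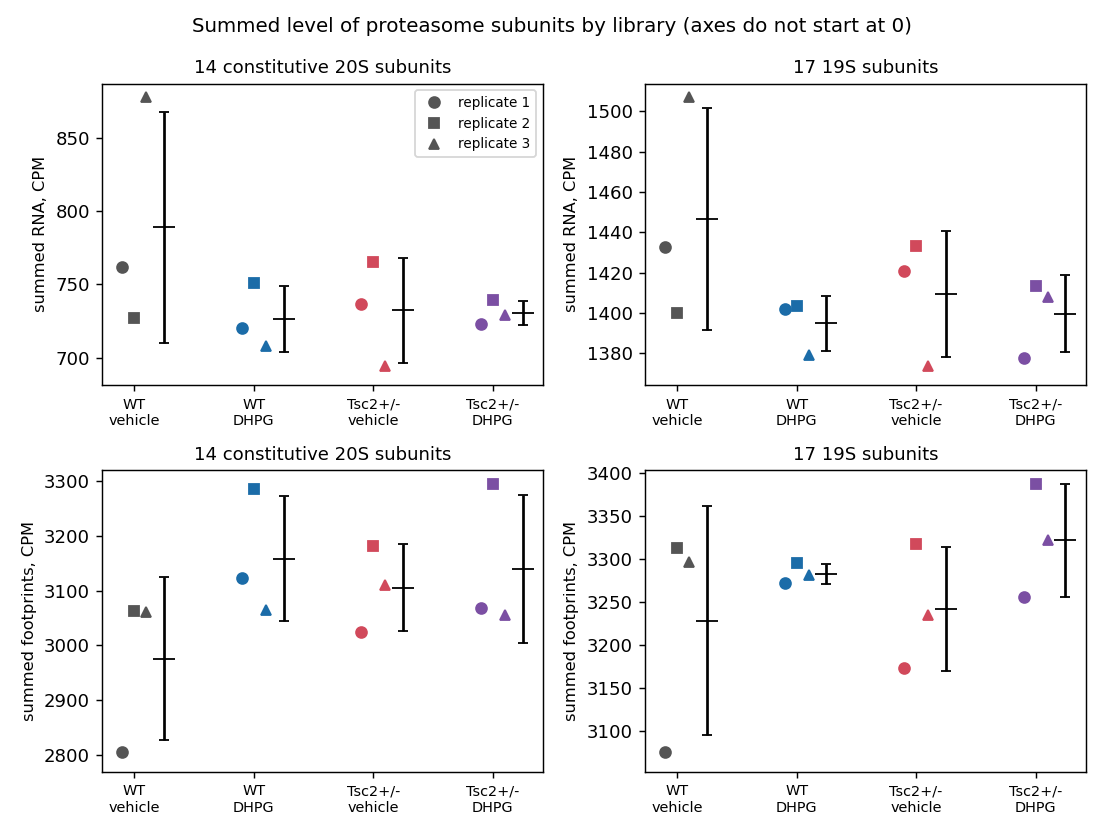
Summed CPM of the 14 constitutive 20S subunits and of the 17 19S subunits in RNA and in RPFs, 1 point per library shaped by replicate number, with mean ± SD of 3 for each group, on axes that do not start at 0. WT vehicle replicate 3 lies above all other RNA libraries, at 877.6 CPM for the 20S subunits, and WT vehicle replicate 1 lies below all other RPF libraries, at 2803.9 CPM.

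The summed levels show the same libraries. RNA of the 14 constitutive 20S subunits was 762.0, 727.3 and 877.6 CPM in WT vehicle, while the other 9 libraries lay between 694.6 and 765.5, so that only replicate 3 exceeded the range of the other groups. Summed RPFs were 2803.9, 3062.4 and 3060.8 CPM in WT vehicle and 3123.6, 3287.0 and 3065.2 in WT DHPG, and the lowest DHPG library lay just above the highest vehicle library. For the 17 19S subunits, RNA sums were 1373.9 to 1507.0 CPM and RPF sums 3075.6 to 3386.8 over the 12 libraries, with WT vehicle replicate 3 at the top in RNA and WT vehicle replicate 1 at the bottom in RPFs.

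The effect of the Tsc2+/- genotype in vehicle slices shares the WT vehicle libraries with the DHPG comparison in WT, so the values are set side by side only. In edgeR's test 0 of 46 members were called in RNA (0.0964% of all genes), 0 in RPFs (0.0233%) and 0 in TE (0%), and DESeq2, alone or after ComBat, also called 0 in RNA and RPFs. DESeq2 called 0 in TE too. At an unadjusted p under 0.05 there were 2 members in RNA (4.35%, against 4.95% of all genes), 2 in RPFs (4.35% against 6.71%) and 5 in TE, all higher (10.9%, against 5.15% and 2.35% higher), namely Psma1, Psma6, Psmb1, Psmb6 and Psmb7. The medians over the 16 20S genes were -0.13 in RNA, 0.05 in RPFs and 0.19 in TE, over the 21 19S genes -0.04, -0.01 and 0.04, and over the 9 activators and assembly factors 0.02, 0.01 and 0.01. For the 14 constitutive 20S subunits, which share the same libraries and are not replicates of one another, 1 was above 0 in RNA, 12 in RPFs and 14 in TE. Without WT vehicle replicate 3 the 20S medians were -0.02 in RNA and 0.12 in TE, and with the GC and length dependence removed -0.04 and 0.05.

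RNA of the base ATPase Psmc5 was 70.6, 75.0 and 78.5 CPM in WT and 68.2, 70.5 and 67.1 in Tsc2+/- vehicle, without overlap (-0.12, SE 0.06, adjusted p = 0.961, and -0.08 without WT vehicle replicate 3). TE of Psma6 and of Psme1 differed by 0.22 (SE 0.10) and 0.26 (SE 0.13), both with an adjusted p of 0.934 in edgeR's test. These were 0.12 and 0.11 without WT vehicle replicate 3, and 0.35 and 0.39 without replicate 2.

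Further members gave the following values between genotypes in vehicle. RPFs of Psmb1 were 330.6, 336.5 and 337.0 CPM in Tsc2+/- vehicle, all above the 3 WT vehicle libraries (0.16, SE 0.06, adjusted p = 0.65, and 0.08 without WT vehicle replicate 1). RNA of Psmd10, the base chaperone also known as gankyrin, was 8.34, 7.42 and 8.12 CPM in WT and 6.23, 5.59 and 5.73 in Tsc2+/- vehicle, with no overlap (-0.44, SE 0.17, adjusted p = 0.96). RPFs of Psmd4, a ubiquitin receptor of the 19S base, were 169.0, 181.2 and 164.3 CPM in WT and 157.2, 157.3 and 154.4 in Tsc2+/- vehicle, again without overlap (-0.13, SE 0.06, adjusted p = 0.731). The RNA of 4 blood genes in the table summed to 20.9 to 26.8 CPM in WT vehicle and to 2.59 to 16.5 in Tsc2+/- vehicle, without overlap. Their RPFs were near the floor and overlapped, at 0.38 to 1.45 and 0 to 0.67 CPM. The part of these genes in the values above was not tested.

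**Figure D5:**
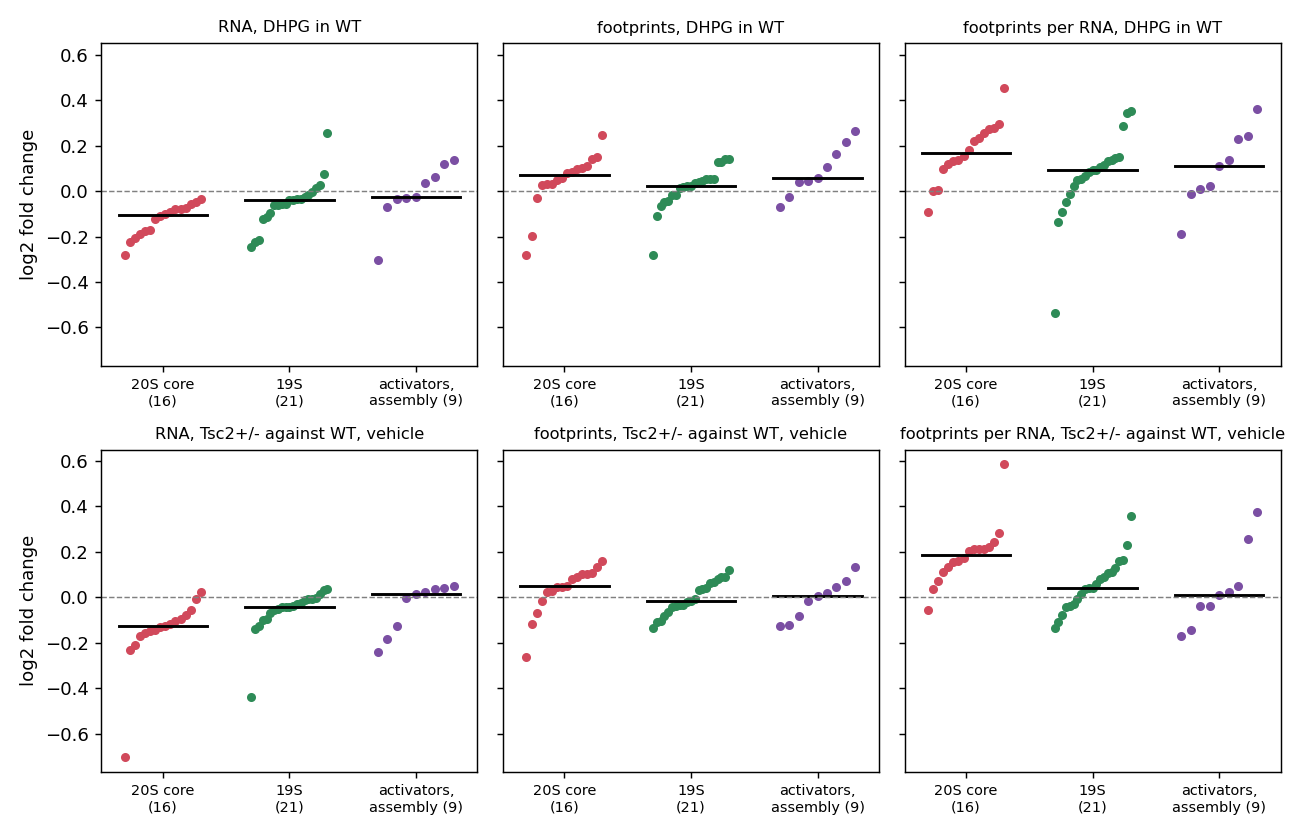
Log2 differences of the 46 tested members for DHPG against vehicle in WT slices (top) and for Tsc2+/- against WT in vehicle slices (bottom), in RNA, RPFs and RPFs per RNA, with 1 point per gene sorted within its class and a line at the class median. The 20S core lies below 0 in RNA (medians -0.11 and -0.13) and above 0 per RNA (0.17 and 0.19) in both rows, which share the WT vehicle libraries, and Psmb1 at 0.45 is the highest point of the top right panel.

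Between genotypes under DHPG, edgeR called 0 of 46 members in RNA (0.0482% of all genes), 0 in RPFs (0.0155%) and 0 in TE (0%), as did DESeq2. At an unadjusted p under 0.05 there was 1 member in RNA (2.17% against 4.73%), 0 in RPFs (against 4.25%) and 0 in TE (against 2.70%). The medians of the 16 20S genes were -0.0095 in RNA, -0.0107 in RPFs and -3e-04 in TE, and those of the 21 19S genes were -0.02, 0.02 and -0.01. For Psmb1 the difference in TE was -0.0077 (SE 0.10, 95% interval -0.20 to 0.18, adjusted p = 1). The lid subunits Psmd11 and Psmd12 had the smallest p with 1 direction in all replicate numbers. RNA of Psmd11 was 54.9, 58.9 and 54.6 CPM in WT DHPG and 59.2, 59.9 and 65.0 in Tsc2+/- DHPG (0.13, SE 0.07, adjusted p = 0.996). RPFs of Psmd12 were 165.2, 160.5 and 155.8 against 170.6, 181.3 and 173.0 (0.12, SE 0.06, adjusted p = 1). Neither gene's groups overlapped. The chaperone Psmg3 had RPFs of 8.88, 9.04 and 7.35 CPM against 9.87, 10.1 and 11.6, also without overlap (0.31, SE 0.17, adjusted p = 1), and RNA of Psmg4 differed by -0.39 (SE 0.26, adjusted p = 0.996). TE of Psmd11 and of Psmd13 differed by -0.16 and 0.15 (SE 0.09 each, adjusted p = 1). The 4 dentate gyrus markers summed to 39.3 to 45.0 CPM in RNA of WT DHPG and to 22.1 to 28.2 in RNA of Tsc2+/- DHPG libraries, without overlap. Their RPFs did not overlap either, at 35.98 to 37.62 and 19.98 to 28.79 CPM. The part of these markers was not tested.

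The effect of DHPG in Tsc2+/- slices also gave 0 of 46 members called by edgeR in RNA, RPFs and TE, with 0% of all genes called in each, and 0 called by DESeq2. At an unadjusted p under 0.05 there were 2 members in RNA (4.35% against 4.86%), 3 in RPFs (6.52% against 3.87%) and 3 in TE (6.52% against 3.32%). The medians of the 16 20S genes were 0.02 in RNA, 0.01 in RPFs and 0.01 in TE. In RPFs the groups did not overlap for 8 of 46 members (17.4%, against 9.42% of all genes and 4.95% higher), all higher with DHPG: Psme2, Psme3, Psmg2, Psmg3, Psmb10, Psmc6, Psmd10 and Psmd12. In RNA the members without overlap went in both directions. RPFs of 5 choroid plexus markers, of which Otx2 was at 0 in every library, summed to 17.4 to 19.8 CPM in Tsc2+/- vehicle and to 15.1 to 15.7 in Tsc2+/- DHPG. RNA of 4 dentate gyrus markers summed to 29.9 to 39.9 CPM in Tsc2+/- vehicle and to 22.1 to 28.2 in Tsc2+/- DHPG. Neither list overlapped between the groups in the assay named. RNA of the choroid plexus markers overlapped, at 17.45 to 24.92 and 15.52 to 19.68 CPM. RPFs of the dentate gyrus markers did not, at 32.11 to 38.84 and 19.98 to 28.79 CPM. The part of either list was not tested.

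The nuclear activator Psme3 and the 20S assembly chaperones Psmg2 and Psmg3 were among the members whose RPFs did not overlap. RPFs of Psme3 were 72.2, 74.8 and 68.6 CPM in Tsc2+/- vehicle and 79.3, 85.6 and 86.4 in Tsc2+/- DHPG (0.22, SE 0.09, unadjusted p = 0.015 and adjusted p = 0.999 in edgeR's test). In WT slices they were 70.6, 67.0 and 76.5 CPM in vehicle and 88.5, 85.3 and 72.0 in DHPG, where replicate 3 lay within the vehicle range (0.22, SE 0.09, adjusted p = 0.632). Its RNA was nearly level, at 135.3 to 146.0 CPM over the 12 libraries. Summed RPFs of Psmg1 to Psmg4 were 71.3, 66.3 and 66.6 CPM in Tsc2+/- vehicle and 79.7, 77.8 and 78.4 in Tsc2+/- DHPG, against 63.9, 74.8 and 73.4 in WT vehicle and 72.7, 74.3 and 79.6 in WT DHPG. The sums of vehicle and DHPG did not overlap in Tsc2+/- slices and overlapped in WT. They hold Psmg2 and Psmg3, which were already named for not overlapping, while Psmg1 and Psmg4 overlapped in Tsc2+/- slices. The sums were not tested. Of the 4 chaperones Psmg2 differed by 0.23 (SE 0.11, adjusted p = 0.999) and Psmg3 by 0.36 (SE 0.18, adjusted p = 0.999) in Tsc2+/- RPFs, and neither passed the test.

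Other members with small unadjusted p in Tsc2+/- slices did not pass the test either. RNA of Psmd10 was 6.23, 5.59 and 5.73 CPM in vehicle and 8.77, 7.01 and 7.67 in DHPG, without overlap (0.42, SE 0.16, adjusted p = 0.959), and the DHPG libraries lay near those of WT vehicle. RPFs of Psmd12 were 154.8, 162.6 and 157.3 CPM in vehicle and 170.6, 181.3 and 173.0 in DHPG (0.14, SE 0.06, adjusted p = 0.999). For the lid subunit Psmd13 the log2 ratio of RPF to RNA CPM was 1.45, 1.56 and 1.70 in vehicle and 1.73, 1.84 and 1.83 in DHPG (0.23, SE 0.09, adjusted p = 0.999). On these scales Psmd10, Psmd12 and Psmd13 were each higher in every DHPG library than in every vehicle library of Tsc2+/- slices.

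Whether the response to DHPG differed between genotypes was tested as an interaction. Of 46 members 0 were called by edgeR in RNA, RPFs and TE (0% of all genes in each), and 0 by DESeq2. At an unadjusted p under 0.05 there were 2 in RNA and 2 in RPFs (4.35% each, against 3.51% and 3.84%) and 1 in TE (2.17% against 3.77%). These were Psmb5 (0.27) and Psmd10 (0.63) in RNA, Psmb1 (-0.18) and Psmb10 (0.42) in RPFs, and Psmb7 (-0.29) in TE, some of them named after their values were seen. TE of Psmb1 with DHPG was higher by 0.45 in WT and by 0.20 in Tsc2+/- slices (SE 0.10, adjusted p = 0.999), where its log2 ratio of RPF to RNA CPM was 2.09, 1.97 and 2.04 in vehicle and 2.08, 2.27 and 2.36 in DHPG. The difference between these responses was -0.25 (SE 0.14, 95% interval -0.52 to 0.02, adjusted p = 1), so the interval held both no difference and one as large as the response of WT slices. For Psme3 the interaction in RPFs was 0.005 (SE 0.12, 95% interval -0.23 to 0.24, adjusted p = 1).

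Averaged over genotypes, DHPG was followed by higher TE of Psmb1 (0.33, SE 0.07, 95% interval 0.19 to 0.46, adjusted p = 0.0566, higher in 5 of 6 contrasts), the single member called of 46 (0.0469% of all genes called, and 0.0313% higher). RPFs of Psmb1 differed by 0.16 (SE 0.04, adjusted p = 0.296) and its RNA by -0.17 (SE 0.05, adjusted p = 0.518), while Psme3 differed by 0.22 in RPFs (SE 0.06, adjusted p = 0.296), higher in 5 of 6 contrasts. No member was called in RNA (0.0207% of all genes) or RPFs (0.0311%) by edgeR or DESeq2, with 6 lower in RNA (13%, against 7.61% of all genes and 3.46% lower) and 3 higher in RPFs (6.52%, against 6.96% and 4.11% higher) at an unadjusted p under 0.05. In TE there were 7, all higher (15.2%, against 8.05% and 4.51% higher). DESeq2 also called Psme3 in TE (among 44 genes), and ComBat with DESeq2 called Psma1, Psma6 and Psmb1 in RNA (among 417 genes) and Psmb1 and Psme3 in RPFs (among 95). The call of Psmb1 was lost without WT vehicle replicate 1 (0.28, adjusted p = 0.233), WT DHPG replicate 1 (0.30, 0.83) or 3 (0.33, 0.181), Tsc2+/- vehicle replicate 2 (0.29, 0.541) or 3 (0.32, 0.262) and Tsc2+/- DHPG replicate 2 (0.33, 0.219) or 3 (0.30, 0.441). Of 15 settings that left out a library or a whole replicate number, only 5 kept the call. Averaged over treatments, genotype gave 0 of 46 members in RNA (0.248% of all genes), RPFs (0.0544%) and TE (0%) in both tools, with 0 (against 6.28%), 1 (2.17% against 6.83%) and 0 (against 4.08%) at an unadjusted p under 0.05.

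The other genes of the pathway were read from a list of 30, of which 29 were tested, and 0 were called in RNA, RPFs or TE in any of the 7 comparisons, with at most 4 at an unadjusted p under 0.05. With DHPG in WT 4 were higher in TE (against 8.64% of all genes, and 4.33% higher). Averaged over genotypes 4 were lower in RNA with DHPG (against 7.61%, and 3.46% lower), and 3 were higher and 1 lower in TE (against 8.05%). Between genotypes in vehicle 2 were higher and 2 lower in TE (against 5.15%). The median difference of the 29 genes with DHPG in WT was -0.01 in RNA, 0.03 in RPFs and 0.05 in TE. Nfe2l1, the transcription factor that raises proteasome gene expression when the proteasome is inhibited, stood at 374.0 ± 14.6 CPM in RNA in WT vehicle and at 377.7 ± 4.78 in WT DHPG, and at 146.4 ± 7.87 and 138.1 ± 3.803 CPM in RPFs. Pomp, a chaperone that completes the 20S core, had 152.3 ± 13.6 CPM in RPFs in WT vehicle and 170.4 ± 13.2 in WT DHPG, with a TE difference of 0.32 (SE 0.11, adjusted p = 0.364), the highest of the list in that comparison. The ubiquitin receptor Adrm1 and the deubiquitinase Usp14, which bind the 19S particle, differed by -0.0098 (SE 0.08) and 0.06 (SE 0.06) in RPFs with DHPG in WT slices, with adjusted p of 0.982 and 0.877.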

How the data were processed

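RNA-seq (poly(A) selected, directional) and ribosome profiling libraries were sequenced by the authors, who discarded rRNA and tRNA reads, mapped the rest to mm10 and counted unique alignments after collapsing molecular identifiers. The deposited values are estimated counts per gene from RSEM, given as whole numbers by the authors, over whole transcripts for RNA and over coding sequences less 30 nt at each end for RPFs. Reads shared with near-identical copies are lost in this way, so Psma5, Psmb5, Psmb6 and Psmb7, which have pseudogenes, are less certain. The same holds for Psme2, which has the copy Psme2b. No column was left without a sample (0).

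Genes passing filterByExpr in edgeR 4.0.16 (minimum count 10) were tested in R 4.3.3 with the robust quasi-likelihood F test. The model of each assay held 12 libraries and had terms for group and replicate number, since the study's methods correct for batch. TE changes were the interaction of assay and group over 24 libraries, with replicate number within assay. Tests were two-sided, with Benjamini-Hochberg adjustment over all genes tested (14516 in RNA, 12877 in RPFs, 12785 in TE) and calls at an adjusted p under 0.1. Values are log2 fold changes with standard errors (SE) and 95% intervals from them. CPM were scaled by TMM. Densities divided CPM by transcript length (RNA) or coding length less the trimmed ends (RPFs) of the RefSeq transcript with the longest coding sequence. Biological variation between replicates came to 7.01% (RNA) and 7.04% (RPFs). Procedures were tested on simulated counts.

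The members, gene lists and rules for naming genes were chosen with earlier results of these data known. Named were members called in any comparison, the 2 members with the smallest p in each contrast of RNA, RPFs and TE that moved the same way in all 3 replicate numbers, members of each role, the 3 highest and 3 lowest in TE, and those below the filter. Alternatives were DESeq2 1.42.0, ComBat in sva 3.50.0 with DESeq2, other scaling and filters, other lengths, removal of GC and length trends, halved RPF counts of replicates 2 and 3, models without replicate number or with each lysate as a block, and leaving out replicates or libraries. Class medians without each WT vehicle library were added after seeing the data. No p is given over the members as a list.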

Additional observations from a re-analysis of the deposited data

How the results depend on the processing

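Direction was kept in all 753 alternatives tried for single named members. The rule for naming members by small p asked for 1 direction in all 3 replicate numbers. Leaving out libraries could therefore hardly reverse it, and nothing is drawn from this count. In TE, the count of members called with DHPG in WT (1) became 0 with no replicate block, with only the groups compared, with GC content and length trends removed and at an adjusted p under 0.05, and ran from 0 to 6 on leaving out replicates. Averaged over genotypes (1) it became 0 with no replicate block, without the GC and length trends and at an adjusted p under 0.05, 2 with DESeq2, and 0 to 3 on leaving out replicates. ComBat with DESeq2 moved counts of 0 to 4 (RNA) and 1 (RPFs) with DHPG in WT and to 3 and 2 averaged over genotypes, and each became 0 to 1 on leaving out replicates, through WT vehicle replicate 2 in RNA and replicate 3 in RPFs. The other 450 of 488 alternative counts were the same. To look for batches, the mean of each gene in its group was subtracted and what remained was correlated between libraries of different groups. These are thus not correlations of the whole libraries. Same-numbered libraries correlated in this way by 0.0228 to 0.143 in RNA and 0.033 to 0.263 in RPFs over 18 pairs, and differently numbered ones by -0.126 to 0.024 and -0.194 to 0.0667. Not every pair exceeded 0.1 and the labels do not tie numbers to batches, but 12 of 12 libraries in each assay correlated best with one of their own number, as a hint from the data, and beyond Psmb1 the model without the block changed no call.

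Without the GC and length trends the RNA median with DHPG in WT was 0.0096 for the 19S and 0.0225 for activators and assembly factors, and the TE median of the latter was -0.0131. On leaving out replicates these ran from -0.084 to 0.0081, -0.0734 to 0.0551 and 0.0305 to 0.1548. TE levels of the 20S core were 1.793 with the coding length for RNA, and those of the 19S 0.5108 with the median transcript length, 1.033 with the coding length and 0.3141 to 0.5129 without a replicate. The RNA fold range was 2.122 with the coding length. Depth limits the genes with few counts, such as Psmc3ip, Psmb8 and the Psmg genes. The cause of these shifts was not tested.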

Other observations

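Genes of antigen presentation and interferon signalling were read beside the inducible proteasome subunits, from a list of 9 of which 8 were tested, and edgeR called 0 in RNA, RPFs and TE in any of the 7 comparisons, with at most 2 at an unadjusted p under 0.05. In the comparisons with 2 of 8, the share of all genes under this p was 4.86% to 8.64%. Summed RNA of the list was 175.3 to 203.3 CPM in WT vehicle and 169.0 to 208.1 in WT DHPG, and 184.0 to 188.9 in Tsc2+/- vehicle and 157.3 to 206.4 in Tsc2+/- DHPG. The median TE difference of the 8 genes with DHPG in WT was -0.15, with Tap2, a peptide transporter subunit, lowest at -0.71 and the smallest adjusted p at 0.451, while the 14 constitutive 20S subunits had a median of 0.20. Psmb8 had 0.64 to 1.88 CPM in RNA and 2.11 to 2.66 CPM in RPFs over the WT vehicle libraries, and Psmb10 had 10.02 to 16.6 and 18.6 to 29.4 CPM.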
